A study of Mus musculus with 4 samples.

Results

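Cluster 2 of the monocyte, macrophage and dendritic cell (MoMacDC) bundle held 604 of the 6075 bundle cells and of the 11631 CD11b+ splenocytes in the series. Its members were taken by their cluster number in the deposited cell metadata, a number the authors made by clustering the bundle cells on RNA alone. The steady-state library gave 307 of these cells and the GM-conditioned library 297, and no cell barcode of the cluster occurred in both libraries (8 did among all CD11b+ cells).

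The study asked how granulocyte macrophage-colony stimulating factor (GM-CSF) changes the myeloid cells of the mouse spleen. CD11b+ splenocytes were sorted by flow cytometry and profiled by CITE-seq, which counts the RNA of a cell by unique molecular identifiers (UMIs) together with antibody-derived tags (ADTs) on its surface, here for CD115, CD11c, Ly6C, MHCII and CD301b. The study's wild-type mice were C57BL/6 animals of 8 to 12 weeks, and those of the GM-conditioned group received 3 once-daily subcutaneous injections of 10 µg of GM-CSF and were analysed 24 hours after the last. Steady-state mice received no GM-CSF. Each group was 1 RNA library with its 1 ADT library, and how many mice went into a library was not given in the sources used here, so the treatment and the library cannot be told apart, no test between conditions was possible and every interval below covers counting error only.

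Monocytes leave the bone marrow for the blood and spleen as Ly6C-high classical cells, which carry the chemokine receptor CCR2 and can enter inflamed tissue, and part of them turn into Ly6C-low non-classical cells that patrol the vessel wall and depend on the nuclear receptor NR4A1. Both carry CD115, the M-CSF receptor encoded by Csf1r. GM-CSF acts through its own receptor, JAK2 and STAT5, and in culture drives monocytes toward cells that present antigen to CD4 T cells on MHC class II molecules, whose genes are switched on by the coactivator CIITA.

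Cluster 2 was 14.4% of the bundle cells of the steady-state library (307 of 2135, 95% exact binomial interval 12.9 to 15.9) and 7.54% of those of the GM-conditioned library (297 of 3940, 6.73 to 8.41). Of all CD11b+ cells it was 6.36% (307 of 4827) and 4.37% (297 of 6804). The share in the bundle was lower in the GM-conditioned library although the number of cells was nearly the same, since that library held more bundle cells. In an earlier round of the authors' clustering, 304 and 290 of the cells had formed 1 cluster, so the group was not an assembly of unlike first-round clusters. RNA depth was similar in both libraries, with a median of 6865 UMIs and 2412 genes per cell in the steady state and 6681 UMIs and 2306 genes in the GM-conditioned state. The mitochondrial share differed, at a median of 3.4% and 4.94%, and so did the tag depth, at a median of 817 and 368 tag counts per cell. A doublet caller marked 0 of 307 cells, which allows a share of up to 0.977%, and 2 of 297 cells.

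The monocyte label was checked against marker lists. The summed level of the 12 classical monocyte genes was 12579 UMIs per 1000000 (CPM) in the steady-state library and 8180 CPM in the GM-conditioned one, rank 4 and rank 2 from the top among the 14 bundle clusters with at least 20 cells in that library. That of the 12 general monocyte genes was 37161 and 21556 CPM, ranks 4 and 3, and that of the 12 non-classical genes was 4106 and 1142 CPM, rank 3 in both. Csf1r was detected in 98.7% of the steady-state cells and 84.5% of the GM-conditioned cells, and its level had rank 2 of the 14 clusters in both libraries. Ly6c2, which encodes Ly6C2, the antigen of classical monocytes, had ranks 4 and 7. Markers of lymphoid and erythroid cells were near 0, with summed levels of 48.6 and 19.6 CPM for 8 B cell genes, 4.13 and 4.03 CPM for 8 T cell genes with Cd3e, Cd3g, Lck and Cd8a at 0, and 8.72 and 8.56 CPM for 10 NK cell genes.

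Against the other bundle cells, however, the genes that led cluster 2 were not those of the monocyte lists. Of 6936 genes with at least 50 UMIs in the cluster over both libraries, 36 (0.519%) were at least 2-fold higher than in the rest of the bundle in both libraries, and of 9390 genes with at least 50 UMIs in the bundle of each library 324 (3.45%) were at least 2-fold lower. The clusters were made from this RNA, so these counts describe the grouping and test nothing. None of the 10 leading genes was on a monocyte list, and 2 of them, C1qa and Spic, were on the macrophage list. Of the 12 genes of that list 4 (C1qa, C1qb, Spic and Axl) were higher, C1qa and C1qb from 12 or fewer cells in each library. The summed level of that list was 345 and 481 CPM, ranks 4 and 1 among the 14 clusters. Adgre1, encoding F4/80, was at 123 and 236 CPM and Hmox1, heme oxygenase 1, at 83.04 and 104 CPM, whereas Cd163, Cd5l and Mertk, which mark resident macrophages, were between 0 and 1.51 CPM. The cells are therefore called cluster 2 here. Of the monocyte lists, Plac8 alone was at least 2-fold higher than the rest in both libraries, at 7448 and 6695 CPM against 3458 and 2038 CPM.

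Several leading genes came from few cells. Cxcl9, encoding an interferon-gamma-induced chemokine that attracts activated T cells (chr5:92321347-92328079, minus strand, GRCm38), was at 72.0 CPM in the steady state and 80.6 CPM in the GM-conditioned state against 6.42 and 12.3 CPM in the other bundle cells. It was found in 5.21% and 8.08% of the cells, and 3 and 4 cells held 50% of its UMIs. The 19 GM-conditioned cells of cluster 13 had a higher level of Cxcl9, at 1439 CPM. C1qa, a subunit of the complement component C1q (chr4:136895917-136898803, minus strand), was found in 4 cells of each library, with 53.7% and 80.0% of its UMIs in 1 cell. These levels thus describe a handful of cells rather than the cluster.

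Others were spread more widely. Spic, the transcription factor of red pulp macrophages (chr10:88674772-88685015, minus strand), was found in 52 of 307 and 35 of 297 cells, at 31.7 and 32.2 CPM against 5.64 and 5.18 CPM in the rest, with 1 of the 14 clusters (cluster 10, at 62.5 CPM) higher in the steady state. Fam26f, an interferon-induced membrane protein gene, was found in 59.3% and 37.7% of the cells, at 207 and 91.2 CPM against 55.7 and 20.4 CPM. It was higher in the small cluster 13 (29 and 19 cells), at 258 and 225 CPM. Fabp5, a fatty acid-binding protein gene (chr3:10012548-10016607, plus strand), was found in 37.1% and 82.2% of the cells, at 149 and 715 CPM against 48.7 and 247 CPM. In B cells of the same libraries, used here as a rough background for free RNA (median 2976.5 and 2741 UMIs per cell), the levels were 1.14 and 0 CPM for Spic, 34.2 and 7.97 CPM for Fam26f and 7.99 and 71.7 CPM for Fabp5. Any expression of these genes by the B cells themselves would be part of that background. All 3 were above that background in both libraries.

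The remaining leading genes were Sdc4 (syndecan 4), Il4i1 (a secreted amino acid oxidase, chr7:44816387-44840809, plus strand), Nr1h3 (the oxysterol receptor LXR alpha), Cxcl16 (a chemokine that also exists as a membrane-bound scavenger receptor), Ms4a7, Hebp1, C1qb, Cmklr1 (the chemerin receptor), F11r (the junctional adhesion molecule A) and Ifi205. Their ratios to the rest ran from 2.78 for Ifi205 to 7.77 for C1qb in the steady state and from 2.84 for F11r to 19.7 for Il4i1 in the GM-conditioned state. Some of these came from few cells, with C1qb in 6 of 307 and 12 of 297 cells. Il4i1 was found in 28 and 20 cells and Hebp1 in 10 and 31. Ifi205 was at 62.4 and 7.56 CPM in cluster 2 and higher in cluster 13, at 339 and 157 CPM. The 10 lowest genes against the rest were Nusap1, Birc5, Aspm, Kif22 and Spc24 of the mitotic spindle, Jchain and Mzb1 of plasma cells, and 2810417H13Rik, Ctnnd2 and Gm5483, the last pair with no UMI in cluster 2. Of 20 measured mitosis genes 17, and of 18 measured DNA replication genes 13, were at least 2-fold lower than in the rest in both libraries, beside 3.45% of all genes. The summed replication list, at 200 and 180 CPM, was near that of cluster 5, at 187 and 172 CPM.

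**Figure D1:**
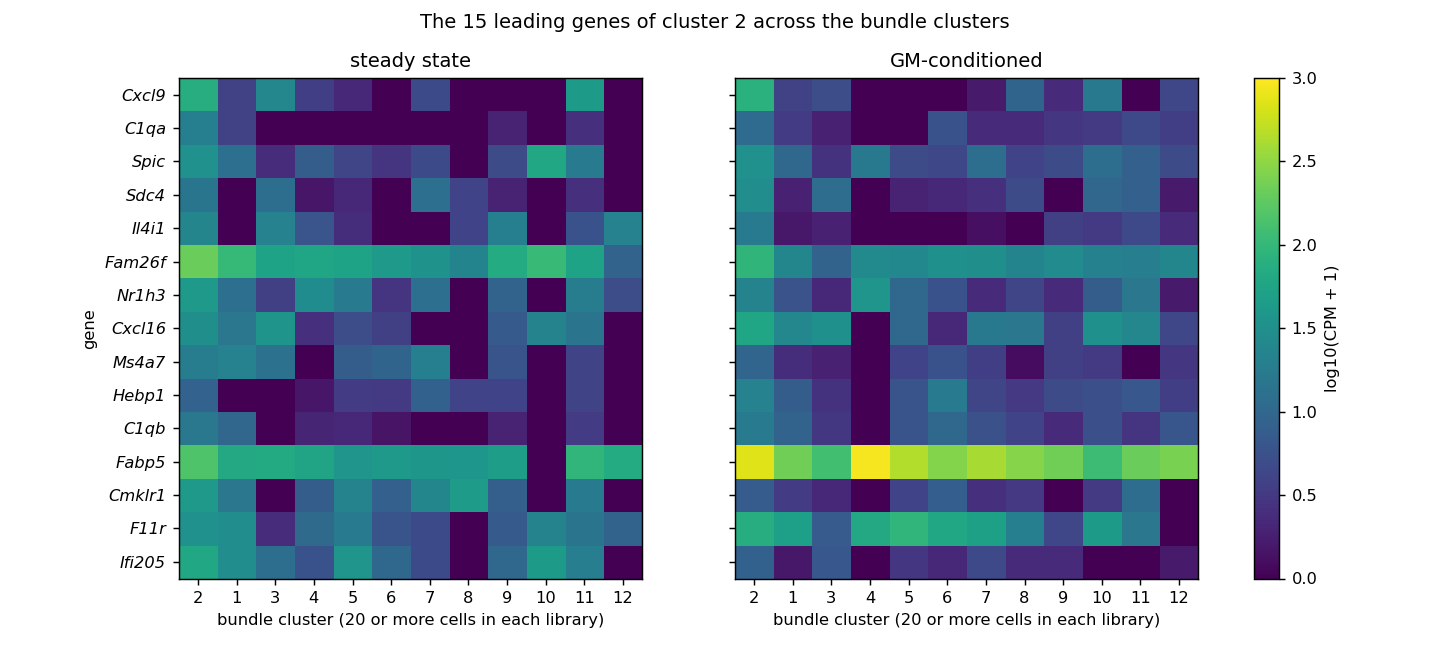
Level of the 15 leading genes of cluster 2, as log10(CPM + 1) in colour, in cluster 2 (first column) and the other bundle clusters with at least 20 cells in each library, steady state on the left and GM-conditioned on the right. The genes were chosen for their ratio to the rest, so the first column is bright in both, and Fabp5 is also bright in other GM-conditioned clusters, with 910 CPM in cluster 4 against 715 CPM in cluster 2. Cluster 13, with 19 GM-conditioned cells, is not shown.

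The deposited cell cycle phases placed 60 of 307 steady-state cells (19.5%, 15.3 to 24.4) and 50 of 297 GM-conditioned cells (16.8%, 12.8 to 21.6) in S or G2/M, against 24.8% and 37.5% of the other bundle cells. Only 2 and 3 of these were in G2/M. By the same phases cluster 5, at 16.5% and 11.3%, and cluster 11, at 2.55% and 5.19%, were below cluster 2. Cluster 6 was above it, at 52.2% and 49.1%. When every cell was thinned to 1000 UMIs and scored again, the share was 33.2% and 29.6% in cluster 2 and 37.2% and 48.3% in the rest, so the share depended on depth and scoring, which were changed together, with cluster 2 below the rest both ways and in both libraries.

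The tags were not used to make the clusters. In the steady state the median Ly6C tag of cluster 2 was 713 counts per cell (quartiles 420 and 1071), rank 4 of the 14 clusters, and that of MHCII was 14 counts (7 and 42.5), rank 10. The median CD115 tag was 6 counts, rank 2, that of CD11c 3 counts and that of CD301b 5 counts. B cells of that library had medians of 24 counts for Ly6C, 444 for MHCII and 0 for CD115. Cluster 2 in the steady state was thus high in Ly6C, low in CD11c and mostly low in MHCII, with a tail of MHCII-bearing cells up to 7812 counts.

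In the GM-conditioned state the medians were 77 counts for Ly6C (45 and 114), 100 for MHCII (53 and 233), 43 for CD115, 77 for CD11c and 10 for CD301b. Ly6C was thus 0.108 times the steady-state median, CD11c 25.7 times and MHCII 7.14 times. Shifts the same way were seen in clusters like it. Ly6C was at 0.0831 times in cluster 5, 0.206 times in cluster 6 and 0.166 times in cluster 11, and MHCII at 10.5, 3.67 and 13.7 times. The tags also moved in B cells, in which Ly6C went from 24 to 8 counts and CD11c from 1 to 8 counts while MHCII was at 444 and 407 counts. The part of tag staining and depth in these differences was not tested. With each tag centred over its library by the centred log-ratio the sign turned for Ly6C, MHCII and CD301b. That centring removes any shift shared by the bundle cells of a library, so it gives only the place of cluster 2 within its own library. Among the 14 clusters of the GM-conditioned library cluster 2 had rank 6 for Ly6C, 11 for MHCII, 4 for CD115, 12 for CD11c and 10 for CD301b, against 4, 10, 2, 11 and 5 in the steady state.

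**Figure D2:**
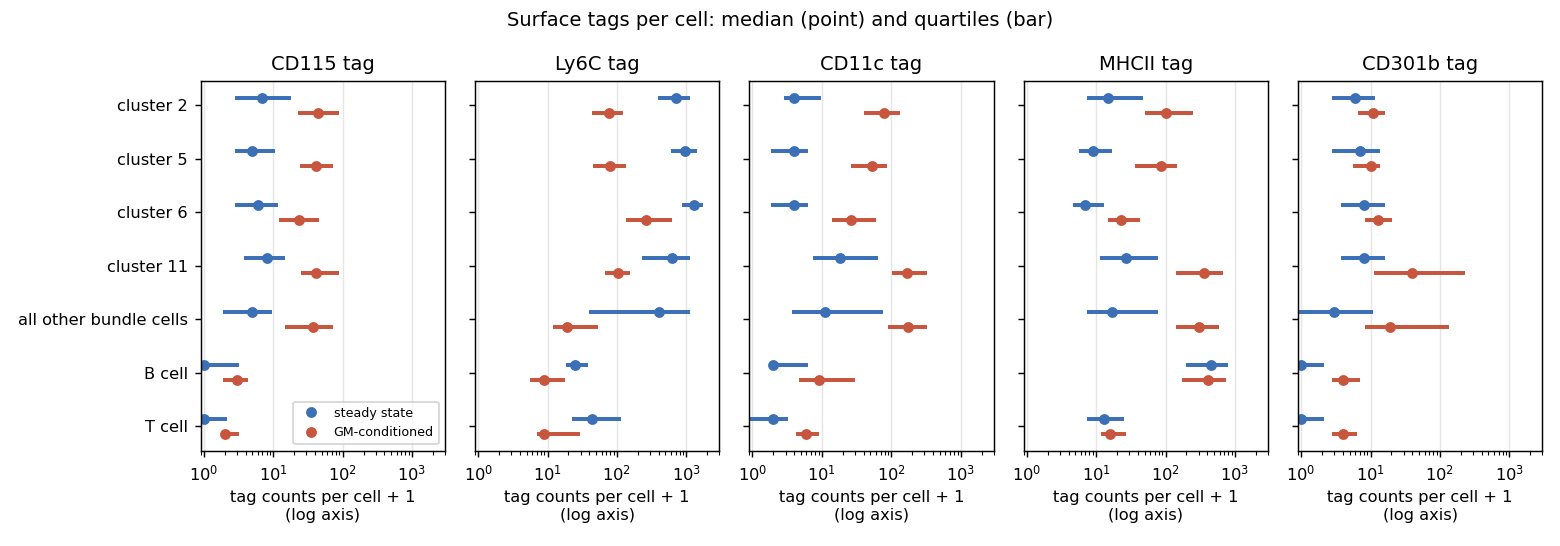
Counts per cell of the 5 antibody tags plus 1 (x axis, log scale) in cluster 2, clusters 5, 6 and 11, all other bundle cells, B cells and T cells, with the median as a point and the quartiles as a bar, blue for steady state and red for GM-conditioned. In cluster 2 the Ly6C median lies at 713 (steady state) and 77 (GM-conditioned), and the MHCII median at 14 and 100, and clusters 5, 6 and 11 shift the same way.

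A tag followed its own transcript to a different degree across the cells of cluster 2. Over the 307 steady-state cells the correlation of the log counts was 0.77 for MHCII with H2-Aa, 0.57 for Ly6C with Ly6c2, 0.48 for CD11c with Itgax and 0.10 for CD115 with Csf1r. Over the 297 GM-conditioned cells it was 0.69, 0.29, 0.39 and 0.23, and 0.63 for CD301b with Mgl2. The points are cells of 1 library and share its depth, so these values are descriptions.

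Cells at the ends of the MHCII tag differed beyond the MHC class II genes themselves, a comparison chosen after the tag values were seen. In the steady state the 76 cells in the highest quartile of the tag held 3657 CPM of H2-Aa against 72.9 CPM in the 77 cells of the lowest, at similar median depths of 7103 and 6565 UMIs. The highest quartile also held more Itgax, encoding CD11c, at 123 against 21.7 CPM, more Fabp5, at 204 against 80.8 CPM, and a higher sum of the classical dendritic cell list, at 343 against 106 CPM. Ly6c2 was lower there, at 526 against 751 CPM, while the sum of the general monocyte list was still 31169 CPM against 37636 CPM. The MHCII-bearing cells thus carried the general monocyte genes too. The summed B cell list was 101 CPM in the highest quartile and 27.6 CPM in the lowest, and its part in the difference was not tested.

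In the GM-conditioned state the 74 cells of the highest MHCII quartile held 5253 CPM of H2-Aa and the 75 of the lowest 964 CPM, so that the lowest quartile lay above the 72.9 CPM of its steady-state counterpart. Cxcl9 was nearly confined to the upper end, at 305 against 2.14 CPM, and so was Mgl2, encoding the lectin CD301b, at 135 against 2.14 CPM. Batf3, a transcription factor of dendritic cells, was at 206 against 87.6 CPM. Nr4a1 and Ace, both of non-classical monocytes, went the other way, at 45.6 against 169 CPM and 103 against 248 CPM. Median depth was 6575 and 6598 UMIs in these quartiles, and the summed B cell list was 19.8 and 12.8 CPM.

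Along the Ly6C tag the steady-state cells divided by monocyte list. The 76 cells of the highest quartile held 15624 CPM of the classical list and 3500 CPM of the non-classical list, and the 77 of the lowest 7300 and 5422 CPM. MHC class II list genes were at 3407 CPM in the highest quartile and 15449 CPM in the lowest. In the GM-conditioned state the classical list was again higher at the upper end of Ly6C, at 9122 against 6524 CPM, but so was the non-classical list, at 1443 against 941 CPM. Depth was also higher at the upper end of this tag, with medians of 7463 against 6012 UMIs and 7120 against 6182 UMIs.

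The study gated CD115hi cells by tag and divided them into P-I to P-IV. In cluster 2 the gate held 53 of 307 steady-state cells (17.3%, 13.2 to 22.0) and 68 of 297 GM-conditioned cells (22.9%, 18.2 to 28.1). Most of these were P-I, 44 of 53 (83.0%, 70.2 to 91.9) and 53 of 68 (77.9%, 66.2 to 87.1), and they made up 31.7% and 28.3% of the P-I cells of the bundle. P-IV, the subset that is CD301b-positive in the study, counted 2 and 4 cells in cluster 2, of 7 and 313 in the bundle. For Csf1r and Ly6c2, P-I cells of cluster 2 and those outside the gate differed less than the conditions did, with Csf1r at 860 and 749 CPM in the steady state and 421 and 317 CPM in the GM-conditioned state, and Ly6c2 at 1017 and 809 CPM and at 113 and 49.4 CPM. This did not hold for Cxcl9, at 201 CPM in P-I and 48.2 CPM outside the gate in the steady state and at 15.8 and 69.1 CPM in the GM-conditioned state. Its P-I values rested on 63 and 6 UMIs. With 3 and 4 cells of the cluster holding 50% of its UMIs, a few cells can make this difference. H2-Aa was lower in P-I than outside the gate, at 735 against 1171 CPM and 2939 against 3336 CPM.

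Between conditions, 265 of the 6936 genes (3.82%) were at least 2-fold higher in the GM-conditioned cells of cluster 2 and 480 (6.92%) at least 2-fold lower, as ratios of CPM with 0.5 counts added to each sum. Counts of list members higher or lower between conditions are to be read beside these shares. A list with 1 member past 2-fold shows little about the list. Of the 745 genes past 2-fold 35.6% were thus higher, a share that became 50.6% when the ratios were centred on their median of 0.917 (log2 -0.12) and 48.5% when mitochondrial and ribosomal protein genes were left out of the totals. At 4-fold the counts were 42 and 79. The genes nearest the limits were Paics at 2.003 and Tra2b at 0.499 inside them, and Cpped1 at 1.999 and Sh2d3c at 0.50004 outside. A gene absent from 1 library had to reach 50 UMIs in the other to be among the 6936 of the 27998 genes, so the counts do not cover genes of low level.

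**Figure D3:**
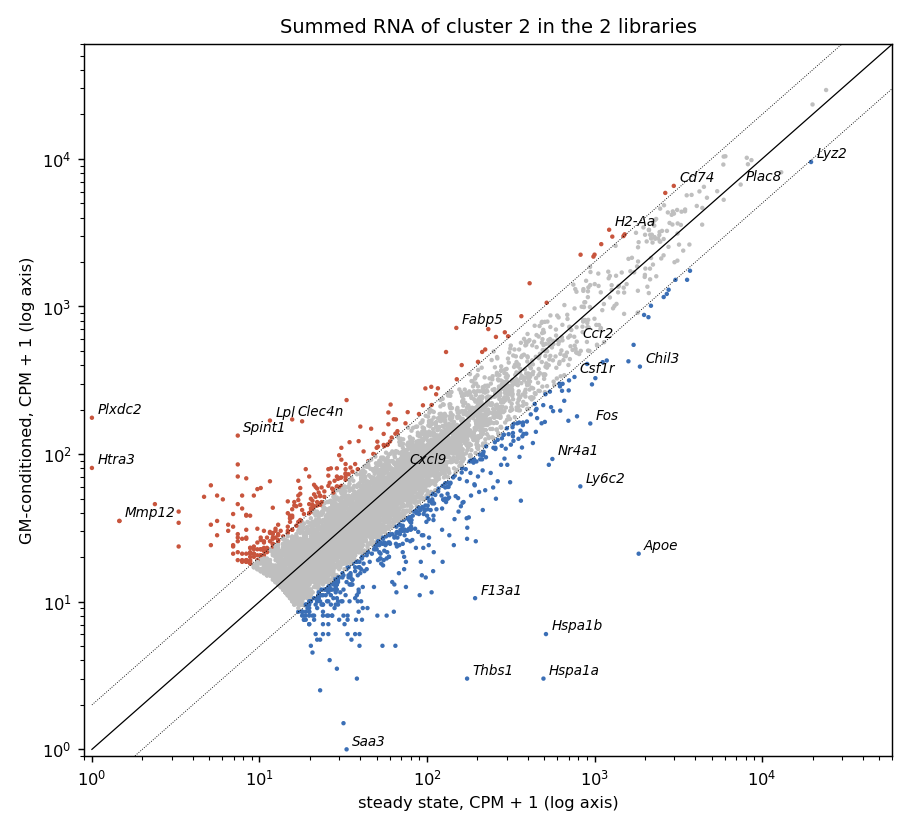
CPM + 1 of each of the 6936 genes in the steady-state cells (x axis) and the GM-conditioned cells (y axis) of cluster 2, both on log axes, with the genes past 2-fold (dotted lines) in red where higher and in blue where lower, and selected genes named. Genes far above the diagonal include Plxdc2, Spint1 and Lpl, and those far below it Hspa1a, Apoe, Thbs1 and Ly6c2.

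The MHC class II genes were higher as a group. Of 10 listed genes 9 had enough UMIs and all 9 were at least 2-fold higher, with a median log2 ratio of 1.37, and their sum was 6905 CPM in the steady state and 16565 CPM in the GM-conditioned state. H2-Aa, the alpha chain of I-A (chr17:34282744-34287823, minus strand), was at 1221 and 3309 CPM, a ratio of 2.71 (2.59 to 2.84). Cd74, the invariant chain that guides the dimers to the endosome, was at 2971 and 6559 CPM, and Ciita, the coactivator, at 64.2 and 171 CPM. H2-Ab1, H2-Eb1, H2-DMa, H2-DMb1, H2-DMb2 and H2-Oa were higher as well.

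More cells carried H2-Aa, H2-Ab1 and H2-Eb1 in the GM-conditioned library. H2-Eb1 had 1797 UMIs in 104 steady-state cells and 4450 UMIs in 260 GM-conditioned cells, so its mean count per carrying cell was nearly the same. The means hide a different spread, since 12 and 55 cells held 50% of these UMIs. For H2-Aa, with 2662 and 6568 UMIs in 138 and 271 cells, the mean per carrying cell was higher in the GM-conditioned library. The same held for H2-Ab1, with 2780 and 5900 UMIs in 161 and 276 cells. H2-Aa was found in 138 of 307 steady-state cells (45.0%), and 20 of them held 50% of its UMIs, whereas 271 of 297 GM-conditioned cells (91.2%) carried it and 71 of them held 50%. Thinned to 1000 UMIs per cell, the shares were 31.6% and 81.1%. The steady-state level was thus that of a minority of cells. B cells, which make MHC class II themselves, carried H2-Aa in 80.0% and 89.6% of cells at that depth.

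The genes with the highest ratios were of several functions. Plxdc2, a transmembrane protein gene (chr2:16356304-16755839, plus strand), had no UMI in 307 steady-state cells and 348 UMIs in 177 of the 297 GM-conditioned cells, 175 CPM, at least 127-fold higher than the 1.38 CPM that 3 counts in the steady-state library would give. Htra3, a serine protease gene (chr5:35652023-35679782, minus strand), likewise had none and then 79.6 CPM, at least 57.8-fold higher. Spint1, a serine protease inhibitor gene (chr2:119237362-119249527, plus strand), was at 6.42 and 132 CPM, a ratio of 19.95 (12.1 to 38.3). Plxdc2 and Htra3 were at 0 and 3.98 CPM in B cells and Spint1 at 1.14 and 7.97 CPM, well below cluster 2 of the GM-conditioned library.

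Lpl, encoding lipoprotein lipase (chr8:68880491-68907448, plus strand), was at 10.6 and 168 CPM, a ratio of 15.6 (10.4 to 25.4), and was found in 3.58% and 45.1% of the cells. Mgl2 was at 1.38 and 44.8 CPM, a ratio of 28.1 with a counting interval of 10.8 to 161 over 3 steady-state UMIs, and stayed in 10.1% of the GM-conditioned cells. Mmp12, the macrophage elastase gene, and Upp1, encoding uridine phosphorylase, each rested on 1 steady-state UMI, with ratios of 50.1 (12.96 to 2992), and 2 cells held 50% of the GM-conditioned UMIs of Mmp12. Clec4n, encoding the fungal receptor dectin-2, was at 14.7 and 171 CPM, a ratio of 11.5 (8.08 to 17.3). The other genes with the 15 highest ratios were Cd24a, Dok2, Eva1b, Ffar2, Gatm, Mapk13 and Ube2c, at ratios between 10.5 and 15.9.

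In the other direction, most measured genes of the classical and non-classical monocyte lists were lower. Of the 12 classical monocyte genes 9 were at least 2-fold lower and none higher, with a median log2 ratio of -2.27. Ly6c2 (chr15:75108158-75111970, minus strand) was at 822 and 59.4 CPM, 13.8-fold lower (11.5 to 16.8), and was found in 74.3% and 21.2% of the cells. In the GM-conditioned B cells Ly6c2 was at 47.8 CPM, and at 1000 UMIs per cell 5.72% of cluster 2 and 5.19% of these B cells carried the transcript. Within GM-conditioned cluster 2, however, it was at 154 CPM in the highest quartile of the Ly6C tag and at 23.4 CPM in the lowest. The part of free RNA in the GM-conditioned level was not tested. F13a1, coagulation factor XIII subunit A, was 19.6-fold lower (12.7 to 33.8), and Chil3, the chitinase-like protein Ym1, 4.77-fold (4.42 to 5.16). Ccr2, at 782 and 577 CPM, Plac8, at 7448 and 6695 CPM, and Vcan, at 44.0 and 42.3 CPM, did not pass 2-fold.

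Non-classical genes were lower too. Of 11 measured genes of that list 10 were at least 2-fold lower, with a median log2 ratio of -2.03. Nr4a1 was at 559 and 91.7 CPM, 6.09-fold lower (5.22 to 7.17), Spn, encoding the sialoglycoprotein CD43, at 214 and 40.8 CPM, 5.22-fold (4.14 to 6.73), and Pou2f2 at 697 and 167 CPM, 4.16-fold (3.70 to 4.71). In B cells Nr4a1 was at 331 and 27.9 CPM, with a UMI in 39.8% and 6.33% of the cells. For Nr4a1 the difference between the libraries was thus not particular to cluster 2. The part of free RNA and of sample handling in it was not tested. Of the 12 general monocyte genes 5 were lower, among them Csf1r, at 758 and 332 CPM, 2.28-fold (2.08 to 2.50), and Cx3cr1, the fractalkine receptor, at 428 and 118 CPM, 3.62-fold (3.14 to 4.204). In B cells Csf1r had a UMI in 19.9% and 2.53% of the cells and Cx3cr1 in 16.3% and 1.27%. The part of free RNA in these decreases was not tested. Psap, Fcer1g, Cd68, Itgam, Mpeg1, Ms4a6b and Ms4a6c stayed within 2-fold. Classical and non-classical markers were therefore both lower in cluster 2, and neither list replaced the other.

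Transcription factors of monocytes and dendritic cells were lower in 10 of 24 measured genes, with a median log2 ratio of -0.63, and higher in 1. That one was Batf3, at 65.6 and 142 CPM, a ratio of 2.16 (1.76 to 2.67). Cebpb, a factor of monocyte maturation, was at 1709 and 549 CPM, 3.12-fold lower (2.91 to 3.34), and Klf4 at 394 and 165 CPM, 2.38-fold lower (2.10 to 2.71). In B cells of the same libraries Cebpb had a UMI in 36.2% and 15.2% of the cells and Klf4 in 39.3% and 5.06%. These decreases were thus not particular to cluster 2, and the part of free RNA and sample handling was not tested. Maf, Klf2, Id1, Tcf4, Bcl6, Nr4a1 and Egr1 were also among the 10.

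**Figure D4:**
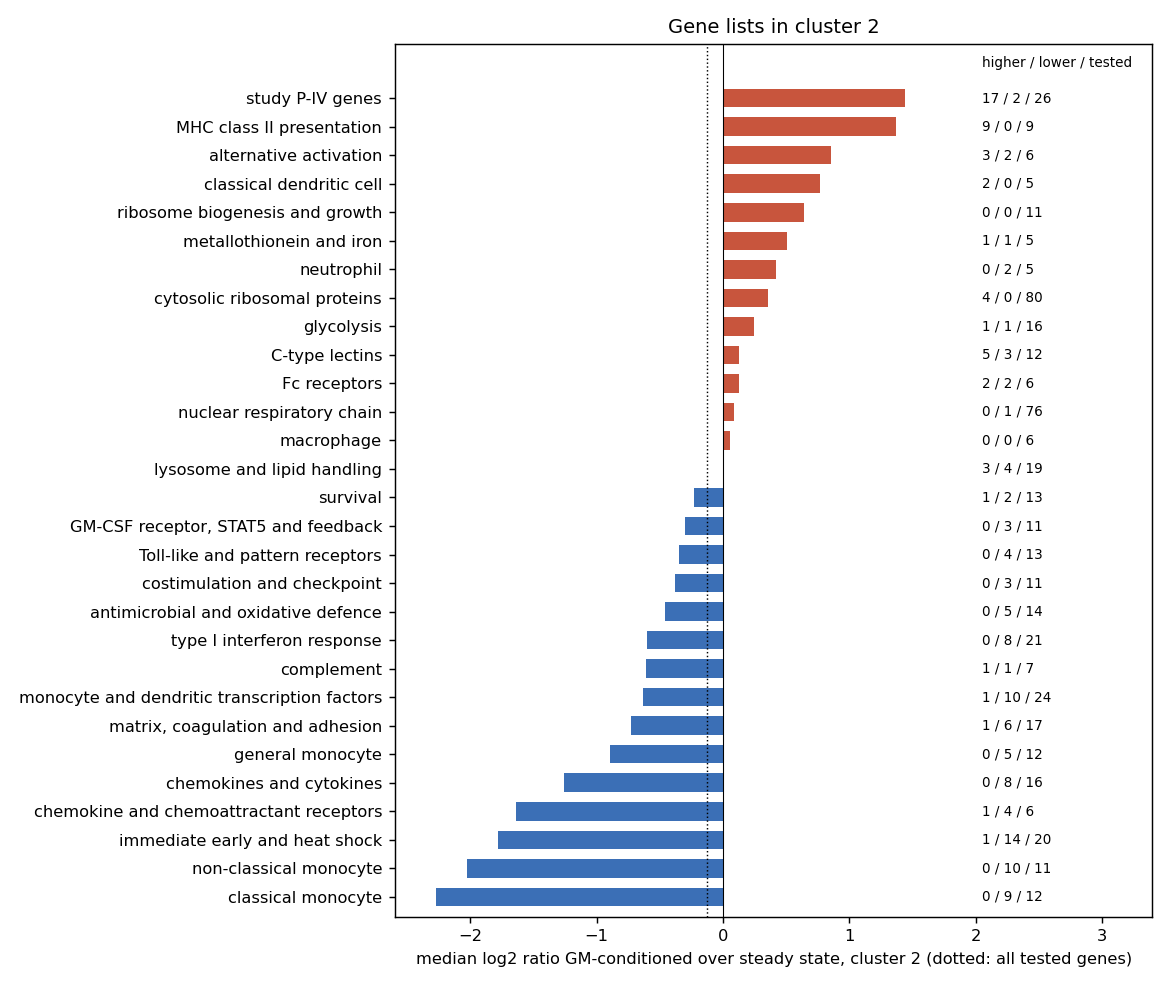
Median log2 ratio of GM-conditioned over steady state in cluster 2 over the measured members of each gene list (bars), with the numbers of members higher, lower and measured at the right and the median of all 6936 genes as a dotted line. The MHC class II list has its median at 1.37 and the classical and non-classical monocyte lists at -2.27 and -2.03, against -0.12 for all 6936 genes.

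The strongest decreases included heat shock and lipid genes. Hspa1a, encoding an inducible HSP70 chaperone (chr17:34969190-34972156, minus strand), was at 495 and 2.02 CPM, 218-fold lower (95.6 to 902), and its neighbour Hspa1b, nearly identical in sequence so that the counts of each are uncertain, 96.8-fold lower (55.1 to 213). Hspa1a was in 52.1% of the steady-state cells. In B cells it was at 329 CPM in the steady state and 0 CPM in the GM-conditioned state, so the difference between the libraries was not particular to cluster 2. Of the 20 immediate early and heat shock genes 14 were lower and 1, Ier3, higher, with Fos at 942 and 160 CPM, Dusp1 at 785 and 179 CPM and Zfp36 at 1592 and 424 CPM. In B cells Fos was at 596 and 87.6 CPM, Dusp1 at 471 and 151 CPM and Zfp36 at 945 and 259 CPM. The part of sample handling in these genes was not tested.

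Apoe, encoding apolipoprotein E (chr7:19696109-19699188, minus strand), was at 1833 CPM in 86.3% of the steady-state cells and at 20.2 CPM in 6.73% of the GM-conditioned cells, 89.9-fold lower (66.7 to 128). B cells went the other way, from 790 to 1749 CPM. Thbs1, encoding thrombospondin 1 (chr2:118111876-118127133, plus strand), was at 173 and 2.02 CPM, 76.2-fold lower (33.2 to 316), with 11.4 and 0 CPM in B cells. Saa3, a serum amyloid gene, was at 32.1 CPM in the steady state and had no UMI in the GM-conditioned state, at least 21.3-fold lower, but came from 5 cells. The lysosome and lipid list as a whole moved in both directions, with Lpl, Fabp5 and Abcg1 higher, Apoe, Fabp4, Trem2 and Ctsb lower, and a median log2 ratio near 0 over its 19 measured genes. Abcg1, the cholesterol exporter, was at 88.5 and 186 CPM.

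Of 11 measured genes of the GM-CSF receptor, STAT5 and feedback list none was 2-fold higher and 3 were lower, beside 6.92% lower among all genes. These were Socs3 at 108 and 37.3 CPM, Pim1 at 700 and 269 CPM and Osm at 22.9 and 7.05 CPM. The common beta chain Csf2rb was at 267 CPM in both libraries and the alpha chain Csf2ra at 238 and 147 CPM. Cish, the STAT5-induced feedback gene, was at 0.459 and 4.03 CPM, too few UMIs to enter the counts.

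The letters TTCNNNGAA, the core of the sites that STAT proteins bind, were looked for in the RefSeq promoters (250 bases before to 50 after the start site, GRCm38.p6), where the motif reads the same on both strands. They occurred in 8.30% of all 32851 promoters and in 8.15% of the 5423 measured genes with one. Of the higher genes 13 of 204 (6.37%) and of the lower genes 33 of 344 (9.59%) had a match, shares on either side of the background. Of the named genes 12 had a match, 2 of them called higher and 9 lower. Those of 5 of the 12, chosen after their values were seen from the groups described here, Batf3 and Clec4a2 among the higher and Fcgr1, Socs3 and Zfp36 among the lower, are printed with 10 bases on either side, 5′ to 3′ on the strand of the gene, and with the match in capitals. A match is a description of the letters and not a bound site.
Batf3: gccacgtgacTTCCACGAAgagcgggggc
Clec4a2: ctagaggagaTTCAAAGAAgggaagtctt
Fcgr1: aaggatgtatTTCCCAGAAaagggaacag
Socs3: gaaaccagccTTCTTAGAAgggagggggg
Zfp36: acagcctgacTTCTGCGAAccgacagtcg
These stretches lay at chr1:191098165-191098193 for Batf3 and chr6:123122638-123122666 for Clec4a2, both on the plus strand, and at chr3:96294060-96294088 for Fcgr1, chr11:117969502-117969530 for Socs3 and chr7:28379227-28379255 for Zfp36, all on the minus strand. The match ended 9 bases before the start site in Zfp36, 34 in Clec4a2, 101 in Fcgr1, 146 in Socs3 and 231 in Batf3. None of the 10 genes with the highest ratios that had a promoter entry held a match.

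Receptors of innate recognition changed member by member. Among Fc receptors Fcgr2b, the inhibitory receptor for IgG, was at 257 and 621 CPM, a ratio of 2.42 (2.19 to 2.68), and Fcgrt, the neonatal Fc receptor that recycles IgG, at 24.8 and 78.1 CPM. Fcgr1, the activating high-affinity receptor, was at 144 and 23.2 CPM, 6.14-fold lower (4.54 to 8.64), and Fcgr4 at 79.4 and 31.2 CPM. Fcgr3 and the common chain Fcer1g stayed within 2-fold. The inhibitory gene was thus higher and 2 of the 3 activating genes lower in the GM-conditioned cells.

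C-type lectins split as well, with 5 of 12 measured genes higher and 3 lower. Clec4a2, a receptor with an inhibitory motif, was at 105 and 285 CPM and Clec10a, the CD301a gene, at 18.8 and 69.5 CPM, beside Clec4n, Clec4b1 and Mgl2. Clec4e, encoding mincle, a receptor for mycobacterial glycolipid, was at 90.8 and 17.6 CPM, 5.09-fold lower (3.58 to 7.61), and Clec4d and Clec5a were lower too. Of 13 Toll-like and pattern receptor genes 4 were lower and none higher, among them Tlr7, the receptor for single-stranded RNA, at 182 and 51.4 CPM, and Nlrp3, the inflammasome sensor, at 62.9 and 12.1 CPM.

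Chemokines and cytokines were lower in 8 of 16 measured genes and higher in none. Il1b was at 204 and 54.4 CPM, Ccl3, which attracts monocytes, at 89.5 and 10.1 CPM, and Cxcl10, an interferon-induced chemokine that shares its receptor with Cxcl9, at 135 and 27.2 CPM, 4.92-fold lower (3.70 to 6.76). In B cells Il1b had a UMI in 18.9% and 3.80% of the cells, Ccl3 in 7.14% and 0% and Cxcl10 in 0.510% and 0%. The part of free RNA in these decreases was not tested either. Cxcl9 itself was at 72.0 and 80.6 CPM, a ratio of 1.12 (0.892 to 1.404). Of the type I interferon list 8 of 21 genes were lower and none higher, among them Irf7 at 239 and 73.5 CPM and Ifi27l2a at 2097 and 845 CPM. With a median log2 ratio of -0.61, most of that list remained within 2-fold, and its summed level had rank 2 of the 14 clusters in the steady state and rank 1 in the GM-conditioned state.

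Adhesion and defence genes were mostly lower or within 2-fold. Of 17 measured matrix, coagulation and adhesion genes 6 were lower, beside 6.92% of all genes, and 1 was higher, beside 3.82% of all genes. The higher one was Itgax, at 57.8 and 158 CPM, a ratio of 2.73 (2.22 to 3.39). Fn1, fibronectin, was at 493 and 214 CPM and Itgal, the alpha chain of LFA-1, at 1010 and 326 CPM. Lyz2, lysozyme M, was at 19599 and 9518 CPM and Cybb, the catalytic subunit of the phagocyte oxidase, at 2767 and 1297 CPM. In B cells Lyz2 was at 3473 and 406 CPM, so its background was higher in the steady-state library.

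Few cell maintenance genes passed 2-fold, beside 3.82% of all genes higher and 6.92% lower. Of 80 measured ribosomal protein genes 4 were at least 2-fold higher. Their median log2 ratio was 0.35, against -0.12 for all genes, and the sum of the list was 170694 and 212315 CPM. Of 76 respiratory chain genes 1 was lower, and of 16 glycolysis genes Aldoa was higher and Hk3 lower. In the survival list Bcl2a1a was higher, at 93.6 and 213 CPM, and Bcl2, at 53.2 and 4.03 CPM, and Cflar, at 136 and 62.0 CPM, were lower. Reads of Bcl2a1a and its close copies Bcl2a1b and Bcl2a1d, at 179 and 347 CPM and 106 and 195 CPM, may be split between them.

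Of the 26 measured genes that the study lists for P-IV, the CD301b-positive subset, 17 were higher in cluster 2 and 2, Tmem176a and Tmem176b, were lower, with a median log2 ratio of 1.44. That list was drawn by the study from these same libraries and is no independent evidence of its direction. Cd9, a tetraspanin gene, was at 38.1 and 121 CPM, Mt1, a metallothionein gene, at 17.9 and 78.1 CPM and Dok2, an adaptor of tyrosine kinase signalling, at 4.13 and 60.5 CPM. Against the other bundle cells 10 of the 29 listed genes with enough UMIs in the bundle were at least 2-fold lower in cluster 2 in both libraries, beside 3.45% of all genes. Among them were Mgl2, Cd24a, Dok2 and Cd9. Those 4 genes were thus higher in the GM-conditioned cells of cluster 2 and still below the rest of the bundle there.

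The clusters nearest to cluster 2 in RNA with at least 50 cells in each library were cluster 5, cluster 6 and cluster 11, with a mean correlation over 9390 genes of 0.955, 0.926 and 0.914. Cluster 1, at a mean correlation of 0.945, was nearer than clusters 6 and 11 but had 49 steady-state cells. It was left out, so the comparisons with like clusters do not cover it. Cluster 6 had 52.2% and 49.1% of its cells in S or G2/M, and cluster 11 a summed neutrophil list of 21460 and 34024 CPM, against 410 and 344 CPM in cluster 2. Relative to each of the 3 in both libraries, 8 genes were at least 2-fold higher in cluster 2, namely Tbc1d8, Sdc4, Axl, Il4i1, Fam26f, Cxcl16, Serpina3g and AW112010, named here after their values were seen. Axl, a receptor tyrosine kinase for dying cells, was at 56.9 and 51.4 CPM in cluster 2.

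The difference between conditions was set beside that of these 3 clusters in the same pair of libraries. Of 139 named genes with enough UMIs, 1 had a larger ratio in cluster 2 than in each of the 3, with an interval of the quotient above 1 and a quotient of at least 2, and 3 had a smaller one by the same measure. The 3 were H2-Aa, H2-Ab1 and H2-Eb1. For H2-Aa the ratio in cluster 2 was 0.116 times that in cluster 5 (0.102 to 0.132), 0.0677 times that in cluster 6 (0.0445 to 0.103) and 0.486 times that in cluster 11 (0.446 to 0.531).

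The levels differed most in the steady state. H2-Aa was at 1221 and 3309 CPM in cluster 2, at 90.7 and 2113 CPM in cluster 5, at 10.5 and 427 CPM in cluster 6 and at 756 and 4213 CPM in cluster 11. In the steady state cluster 2 thus had the highest level of the 4, and in the GM-conditioned state it lay between cluster 5 and cluster 11. The GM-conditioned level was higher than in clusters 5 and 6, where the ratio was larger.

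Lpl was the gene with the larger ratio, 15.6 in cluster 2, which was 2.59 times that in cluster 5 (1.64 to 4.08), 3.75 times that in cluster 6 (2.37 to 5.92) and 2.50 times that in cluster 11 (1.43 to 4.35). Leaving out called doublets turned the comparison with cluster 11 to a log2 quotient of -0.61. Its level was lower than in the 3 other clusters in both libraries, with 54.9 and 330 CPM in cluster 5, 82.3 and 343 CPM in cluster 6 and 30.7 and 193 CPM in cluster 11. Fabp5 was not such a gene, with a ratio of 4.80 in cluster 2, 12.7 in cluster 5 and 2.18 in cluster 11. Ly6c2 was 0.415 times its steady-state level in cluster 6, which kept 573 CPM, against 0.0886 times in cluster 5 and 0.148 times in cluster 11.

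**Figure D5:**
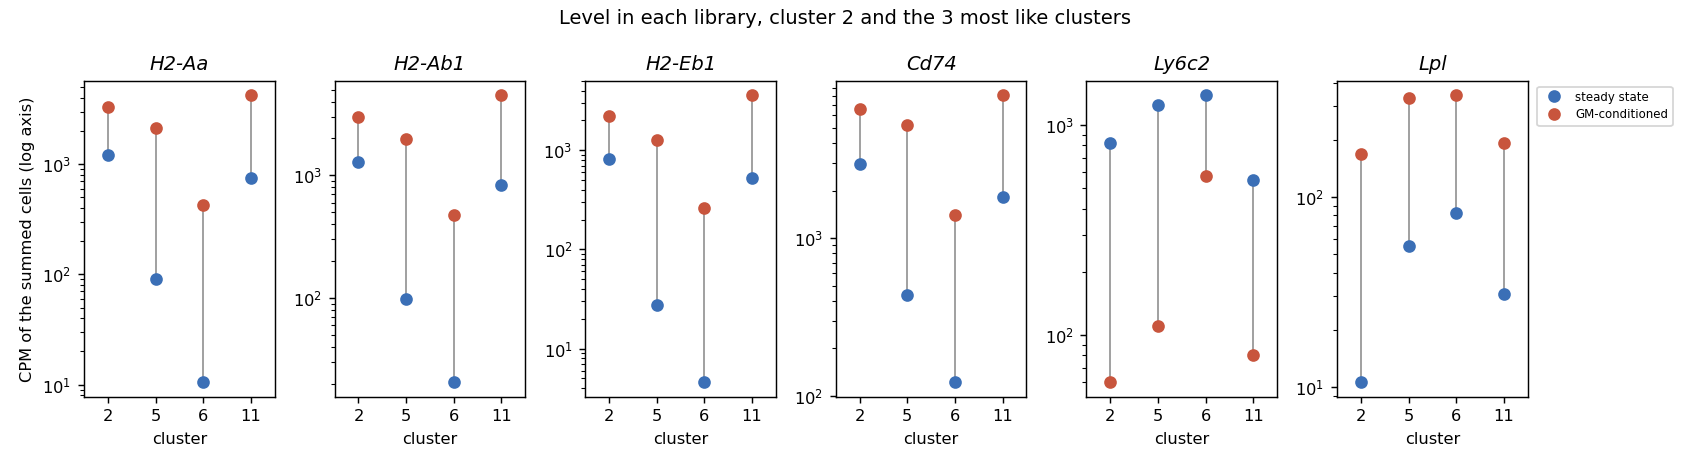
Level in CPM (log axis, with a scale of its own for each gene) of H2-Aa, H2-Ab1, H2-Eb1, Cd74, Ly6c2 and Lpl in cluster 2 and clusters 5, 6 and 11, blue for steady state and red for GM-conditioned, joined by a line. The line of H2-Aa is shortest in cluster 2, between 1221 and 3309 CPM, and that of Lpl longest, between 10.6 and 168 CPM.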

How the data were processed

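The deposited RNA matrices hold raw UMI counts per gene and cell, and the deposited ADT matrix raw counts of the 5 tags. Per the labels, libraries were made with a 3′ single-cell kit (version 3 chemistry), and the submitters' processing notes name Cell Ranger 3.0.2 and Seurat 3.6.0 with the mouse build mm10, and the study's methods name CITE-seq-Count for the tags. The authors deposited cluster numbers, cell types, CD115hi subsets, cell cycle phases, phase scores (S and G2/M score) and the mitochondrial percent of each cell. Cluster members were taken by the deposited cluster number. The members, the gene lists and the tests were chosen with earlier results of these data known.

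Counts of the cells of each library were summed per gene, divided by the sum over all genes and given as CPM. Exact 95% intervals (Poisson for sums, binomial for ratios and Clopper-Pearson for shares) cover counting error only, and a floor of 3 counts stands for a sum of 0. Genes with at least 50 UMIs entered the counts, and a gene was called higher or lower at a ratio of at least 2 or its inverse, with 0.5 counts added to each sum. The quotient of the ratio in cluster 2 and that in another cluster has a normal interval on the log scale. Named genes were the 15 highest and 15 lowest ratios, the 15 leading and 10 lowest genes against the rest, up to 4 called genes of each list, and all monocyte markers and tag genes. Of the listed genes 8 of 10 for B cells, 8 of 10 for T cells, 14 of 15 lectins and 26 of 27 transcription factors were in the table. Doublets were called with Scrublet (in scanpy 1.11.5, exact neighbours) over each whole library. Phases were scored again with 42 S and 54 G2/M genes. Gene coordinates came from GENCODE vM21 (GRCm38) and promoters from RefSeq (GRCm38.p6). Python 3.11.15, numpy 2.4.6, pandas 2.3.3 and scipy 1.17.1 were used, and the ratio rule was tested on simulated data.

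Alternatives changed the count minimum, the counts added, the depth, the scaling, the averaging over cells and the cells used. For the difference from the like clusters, the alternatives without doublets, with G1 cells and at 1000 UMIs were chosen after seeing the data, as was the comparison of tag quartiles. The authors' other clusters were used only for comparison. A few genes of the lists are not reported here by name.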

Additional observations from a re-analysis of the deposited data

Results flagged for a closer look

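Ace, encoding angiotensin-converting enzyme and listed for non-classical monocytes, was 0.326 times its steady-state level in the GM-conditioned cells of cluster 2 and 2.85 times in cluster 6 (1.84 to 4.43), so that the direction was opposite in the clusters. Treml4, a receptor gene of the same list, was likewise at 0.320 times in cluster 2 and 2.25 times in cluster 6 (1.47 to 3.42). Mmp8, the neutrophil collagenase gene, was at 0.358 times in cluster 2 and 3.56 times in cluster 11 (2.90 to 4.40), the cluster with the high neutrophil list. With 1 library per condition these differences were not tested, and the intervals cover counting error only. In B cells Ace had a UMI in 16.8% and 2.53% of the cells, and the part of free RNA was not tested.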

How the results depend on the processing

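The counts of genes moved mainly with how many genes could be counted. With 20 UMIs as the minimum 460 genes were at least 2-fold higher in the GM-conditioned cells, with 200 UMIs 83 were higher and 237 lower, with every cell thinned to 1000 UMIs 80 and 183, and in the CD115hi gate 99 and 210, over 8668, 3136, 1898 and 2675 genes. Centring on the median gave 361 and 352 and leaving mitochondrial and ribosomal protein genes out of the totals 350 and 371. Against the rest of the bundle, 200 UMIs gave 17 higher and 118 lower genes, thinning 11 and 65, and comparison with each of the 3 like clusters 8 and 15. Of 121 named genes past 2-fold, between 105 (CD115hi gate) and 121 stayed past it the same way under the alternatives, 109 at 1000 UMIs and 112 after centring, and Ms4a7 turned to a log2 ratio of 0.21 in the CD115hi gate.

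The share in S or G2/M was 33.2% and 29.6% when scored again at 1000 UMIs. The log2 ratios of the tag medians, 2.84 for CD115, 4.68 for CD11c, -3.21 for Ly6C, 2.84 for MHCII and 1 for CD301b, became 4.06, 5.68, -2.10, 4.22 and 2.07 as shares of a cell's 5 tags. As centred log-ratio differences they became 0.014, 0.87, 0.11, -0.36 and -1.997, so the sign of 3 tags turned. Those differences leave out any shift shared by the bundle cells of a library and do not reverse the change in counts. The log2 quotient of H2-Aa against cluster 6 was -6.52 at 1000 UMIs and -3.89 otherwise, and that of H2-Eb1 -5.55 in G1 cells and -4.34 otherwise. For Lpl it was 2.30 against cluster 5 at 1000 UMIs, 1.26 against cluster 6 in G1 cells, and 3.07 at 1000 UMIs and -0.61 without called doublets against cluster 11, from 1.37, 1.91 and 1.32. The cause of these shifts was not tested. No paired analysis was possible because each condition has 1 RNA library, which also leaves no replicate to omit.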

Other observations

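Of 11 measured genes of the ribosome biogenesis and growth list none was at least 2-fold higher or lower, with a median log2 ratio of 0.64, and Npm1, encoding nucleophosmin, was at 484 CPM in the steady state and 786 CPM in the GM-conditioned state. Of 11 costimulation and checkpoint genes 3 were lower and none higher, Cd40 at 70.2 and 29.2 CPM, Tnfrsf1b at 623 and 196 CPM and Cd83 at 17.4 and 7.05 CPM, while the MHC class II genes were higher in the same cells. Among chemoattractant receptors Cxcr4, Fpr2, Cmklr1 and Cx3cr1 were lower, Cxcr4 at 134 and 49.9 CPM.

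Of the complement list Cfp, encoding properdin, was at 50.01 and 111 CPM and C3 at 376 and 136 CPM. In the metallothionein and iron list Slc11a1, the phagosomal metal transporter, was at 109 and 20.7 CPM, 5.21-fold lower (3.77 to 7.53), while Mt1 was higher.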
